A study of Danio rerio with 6 samples.

Results

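The baseline transcriptome of the intact zebrafish embryo at 33 hours post fertilization (hpf) was read from the 3 wild-type libraries of a series of 6. The remaining 3 libraries, from embryos with a mutated rbm24a, a gene for a protein that binds RNA, were not used. Each wild-type library was made from whole embryos of the AB strain, a standard laboratory strain, with RNA taken up in Trizol and a library kit of the TruSeq type, and was read as paired ends of 100 bp on an Illumina HiSeq. The wild-type embryos carry no mutation or treatment according to the labels. The labels call the samples independent and give no clutch and no number of embryos per library, so p-values measure only the spread between these samples, which may be technical. The members were the 3 wild-type columns of the deposited table, with counts and FPKM for 31624 genes. FPKM here is the number of reads on a gene divided by the length of its exons and by the library's total, so it allows levels of different genes to be compared.

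At this stage the zebrafish embryo is still inside or just leaving its chorion. The heart beats, primitive red cells circulate, trunk muscle twitches and then moves the body, melanin darkens the eye and skin, and the yolk feeds all tissues through the yolk syncytial layer, which packs lipid into lipoprotein particles. Lens fibres fill with crystallins, neurons send out their first tracts while progenitors around them still divide, and cells on the yolk release the enzymes that dissolve the chorion. Working photoreceptors, myelin, mature lymphocytes and most digestive enzymes appear later in development.

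The libraries held 13242789, 13733866 and 14416794 reads counted on genes in replicates 1, 2 and 3. Between 22310 and 22614 genes had a read in a library, and 7366 genes had none in any. A mean of at least 0.5 FPKM, called expressed from here on, was reached by 16507 genes, 52.2% of the table. The median of these was 4.68 FPKM, 5301 genes reached 10 FPKM, 729 reached 100 FPKM and 125 reached 1000 FPKM. Reads were concentrated in few genes, since 345 genes held 50% of them. The 100 genes with most reads held 31.6%, 29.8% and 30.5% of the reads in replicates 1, 2 and 3, a mean of 30.6% ± 0.90 (SD, n = 3).

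The study's mutated gene, rbm24a, stood at 4.73, 5.52 and 4.49 FPKM in replicates 1, 2 and 3, close to the median of the expressed genes. Its paralogue rbm24b had 4, 16 and 8 reads and a mean of 0.497 FPKM, just under the minimum. Fewer cells that use a gene and less RNA per cell cannot be told apart in whole embryos, here and in every level below.

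The highest transcripts came from the mitochondrial genome and the ribosome. The mitochondrial gene mt-co2, for subunit 2 of cytochrome c oxidase, had the highest mean, with 10833, 9994 and 11504 FPKM in replicates 1, 2 and 3. The genes mt-co1 (7081 ± 136 FPKM, SD, n = 3) and mt-co3 (6279 ± 149) encode the other large subunits of the same enzyme and came next. The fourth, zgc:158463, is listed as a gene of ribosomal RNA by RefSeq, and its level was 4649 FPKM in replicate 1 against 6226 and 6566 in replicates 2 and 3. The remaining 16 of the 20 highest genes were 8 genes of ribosomal proteins, 2 more mitochondrial genes, the elongation factor eef1a1l1, the skin keratin krt4, the muscle genes actc1b and mylpfa, the lipoprotein gene apoa1a and the chromatin protein gene hmgn2. Among the ribosomal genes, RPL41 reached 5615 ± 482 FPKM, rplp0 4534 ± 261, rps20 4469.6 ± 501.99, rps15 4130 ± 310 and rps7 4079 ± 288. The genes rpl28 and rpl32 stood at 3230 ± 245 and 3098 ± 211 FPKM. Outside the ribosome, krt4 had 3782 ± 130 FPKM, eef1a1l1 3645 ± 84.7, actc1b 3212 ± 221, apoa1a 3173 ± 174, hmgn2 3170 ± 105 and mylpfa 3081 ± 296. The order within these 20 is loose: the libraries of neighbouring genes did not overlap in 4 of 19 pairs.

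**Figure D1:**
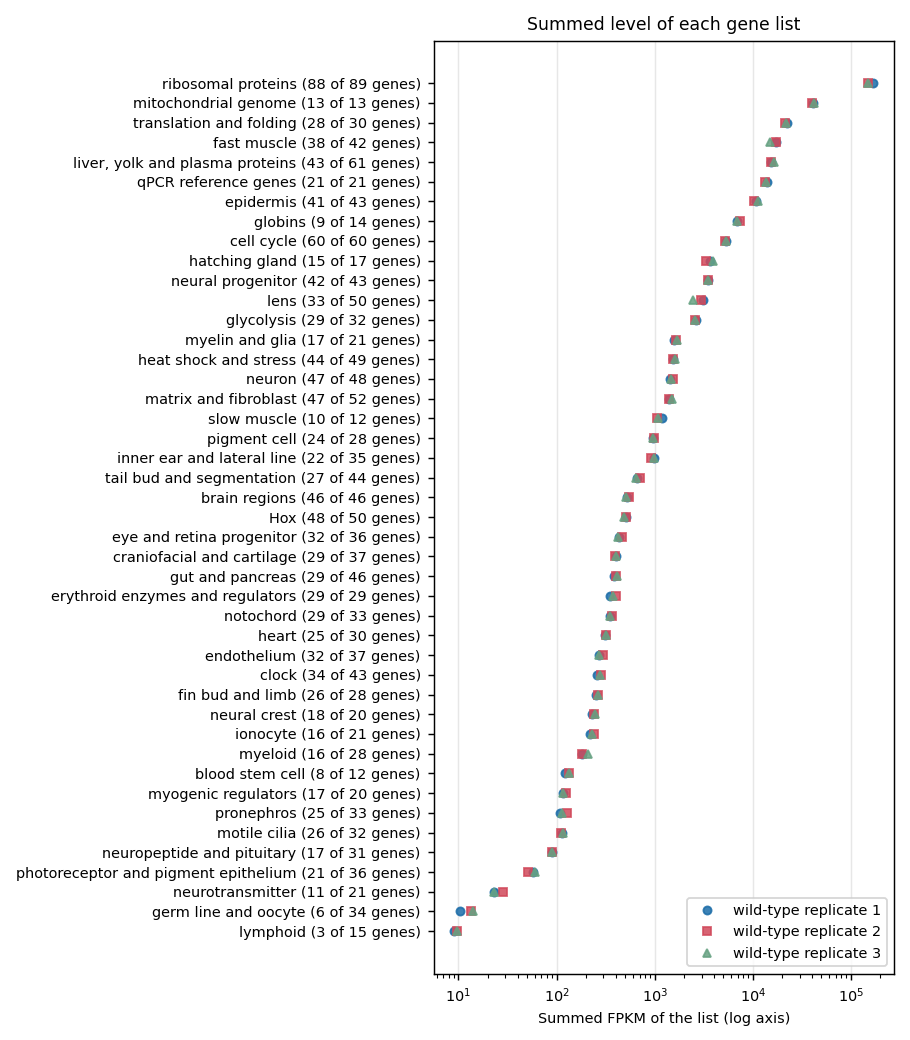
Summed FPKM of each gene list in each wild-type library, on a log axis, with the number of expressed genes of all matched genes in brackets. Ribosomal proteins stand at the top with a mean of 155973 FPKM, and the lymphoid list stands at the bottom with 9.47 FPKM; the 3 libraries lie close together in most lists.

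Gene lists for tissues and processes were written with earlier results of these data known, so their levels are a description and no list was tested. The plot of summed levels gives all of them. The 89 genes of cytosolic ribosomal proteins made up 25.5% of all summed FPKM and 17.2%, 15.09% and 15.29% of the reads in replicates 1, 2 and 3, and 88 of them were expressed. The 13 protein-coding genes of the mitochondrial genome made up 6.76% of summed FPKM. In the translation and folding list, 28 of 30 genes were expressed. The translationally controlled tumour protein gene tpt1 reached 2615 ± 134 FPKM (SD, n = 3), the elongation factor eef2b 1903 ± 51.8 and the chaperone hspa8 1672 ± 40.8.

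Fast muscle carried the highest mean summed level among the tissues, with 17266, 17342 and 14796 FPKM in replicates 1, 2 and 3. Replicate 3 was the low library, and there the list of liver, yolk and plasma proteins was higher, at 16618 FPKM. Of its 42 genes, 38 were expressed, and a single gene, mylpfa, for the fast regulatory light chain of myosin, gave 18.7% of the sum. The troponin gene tnni2a.4 reached 1647, 1659 and 1410 FPKM, and the calcium buffer genes pvalb2 and pvalb1 had 1484 ± 156 and 1163 ± 112 FPKM (SD, n = 3). The fast troponin T gene tnnt3b stood at 210, 212 and 171 FPKM. In tnni2a.4 and tnnt3b the first 2 libraries were close and the third was lower.

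Fast myosin heavy chain genes summed higher than slow ones in each library. The 5 fast heavy chain genes, of which 4 were expressed, summed to 403, 422 and 311 FPKM, and the 2 slow ones to 46.3, 47.9 and 45.2 FPKM, a ratio of 8.13 ± 1.08 (SD, n = 3). The slow heavy chain smyhc1, made by the muscle pioneer and superficial slow fibres, was nearly the whole of the slow sum and differed little between libraries, at 45.4, 46.9 and 44.3 FPKM. The fast genes are close copies of each other and how shared reads were counted is not known here. The split among them, their sum and the ratio are therefore uncertain. The gene myhz1.1 had 172, 194 and 110 FPKM and myhz2 75.7, 64.7 and 77.5, with replicate 3 lowest for the first and highest for the second. Other genes of the slow list, 10 of 12 expressed, were higher, led by myl10 at 631 ± 44.2 FPKM, the slow and cardiac troponin C gene tnnc1b at 295 ± 19.5 and tpm2 at 79.5 ± 0.90.

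Genes of the heart stood far below those of trunk muscle. The cardiac list summed to 318 ± 7.24 FPKM (SD, n = 3), and 25 of 30 genes were expressed. The cardiac myosin light chain myl7 had 67.2, 58.4 and 67.8 FPKM, and the actin gene actc1a, which is not limited to the heart, 73.8, 92.5 and 80.2. The methyltransferase gene smyd1b, also used in skeletal muscle, had 32.6 ± 3.83 FPKM. Of the chamber myosins, ventricular vmhc stood at 6.08, 6.98 and 6.46 FPKM and atrial myh6 at 0.87, 0.88 and 1.59 FPKM. The ventricular gene was above the atrial gene in each library, by 6.33 ± 2.02 times, and replicate 3 was the one with more of the atrial gene. Among 20 myogenic regulators 17 were expressed. Both myod1 and myog were modest. The first had 5.84, 6.62 and 4.85 FPKM and the second 3.1, 3.09 and 4.26. Higher were smyd1a (34.3 ± 3.46 FPKM), six1a (9.46 ± 0.67) and eya1 (9.03 ± 0.91).

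Among the crystallin families of the lens, beta-crystallins had the highest summed FPKM as counted. Of 50 lens genes 33 were expressed, and 6 had no read. Crystallins are the proteins that give the lens its refractive power. The 13 beta-crystallin genes summed to 2161, 2078 and 1726 FPKM in replicates 1, 2 and 3, and 35 gamma M crystallin genes, which are particular to aquatic vertebrates, to 1056, 932 and 915. Replicate 3 was lowest in both families. The 3 alpha-crystallin genes, small heat shock proteins that dominate the mammalian lens, summed to 7.82 ± 1.66 FPKM (SD, n = 3), of which cryaa, at 6.93, 9.45 and 6.36 FPKM, was nearly all. Single beta-crystallin genes reached 392 ± 41.0 FPKM for crybb1, 391 ± 46.2 for crybb1l2 and 359 ± 49.8 for cryba4. The last of these had 401 and 373 FPKM in replicates 1 and 2 and 304 in replicate 3. The lens water channel mipa had 28.7, 39.2 and 25.2 FPKM, with replicate 2 highest. Gamma M crystallin genes are near-identical copies, and how shared reads were counted is not known here. Both their single levels and their sum are therefore uncertain, and so is the gap between their sum and that of the beta-crystallins.

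The list of eye and retina progenitors summed to 440 FPKM and that of photoreceptors and pigment epithelium to 56.3 FPKM. Whole embryos do not show which part of these levels came from the eye. Of 36 genes of eye and retina progenitors 32 were expressed, among them the neurogenic factor neurod4 at 81.4 ± 4.02 FPKM (SD, n = 3), mab21l1 at 47.9 ± 1.39 and mab21l2 at 39.8 ± 1.83. The factor atoh7, which starts the ganglion cell lineage, had 22.8, 21.0 and 16.1 FPKM. The eye field gene rx2 was lower, at 6.05, 5.76 and 5.10 FPKM. In atoh7 and rx2 replicate 3 was the lowest.

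Visual opsins were nearly silent. The rod opsin rho had 0 reads in 3 libraries, which allows a level of up to 0.0466 FPKM over the 3 libraries (3 reads, counting error only). The red cone opsin opn1lw2 had 26, 27 and 25 reads, or 1.05 ± 0.075 FPKM, and the blue cone opsin opn1sw2 9, 12 and 20 reads, or 0.44, 0.57 and 0.91 FPKM. The opsins opn1mw1, opn1mw3, opn1lw1, opn1sw1 and the rhodopsin-like gene rhol had 1 or 2 reads each over all libraries, and opn1mw2 and opn1mw4 had 0. Of 10 visual opsin genes, 2 were expressed. The wider list of photoreceptor and pigment epithelium genes had 21 of 36 expressed. It was led by rbp4l at 24.8 ± 0.63 FPKM, rlbp1b at 4.89 ± 1.57 and the pigment epithelium gene rpe65a at 4.24 ± 0.09.

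**Figure D2:**
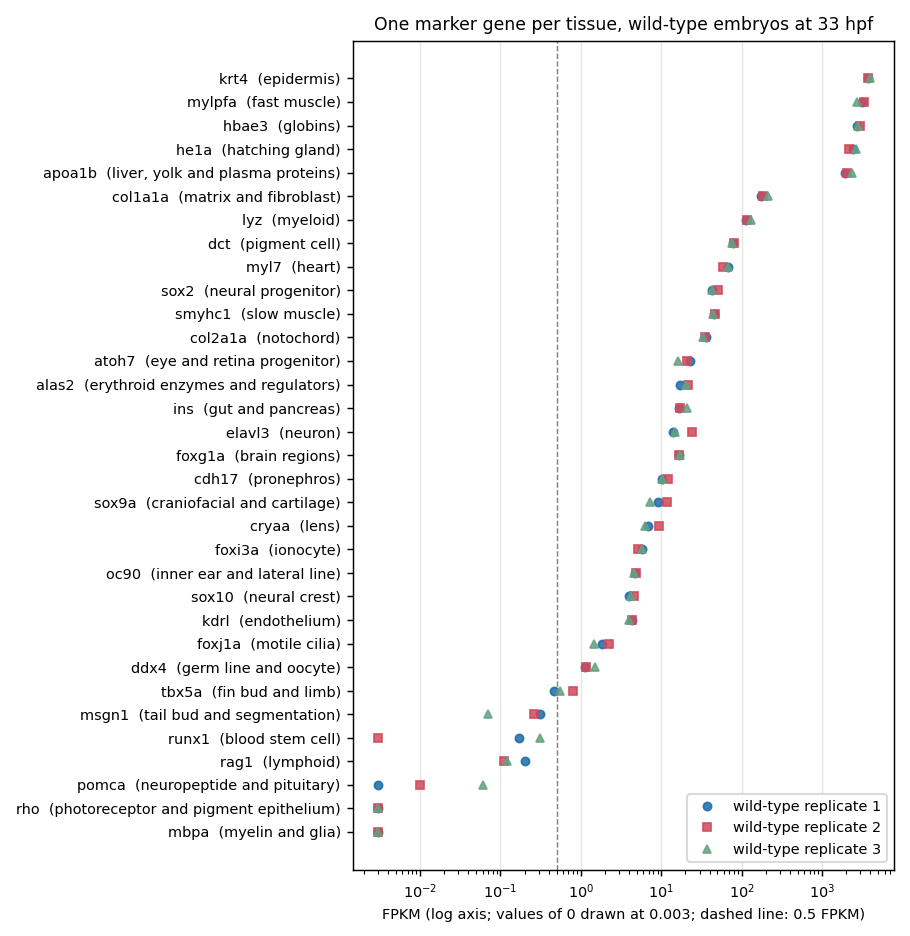
FPKM of 1 marker gene per tissue in the 3 wild-type libraries, on a log axis, where the dashed line marks 0.5 FPKM and values of 0 are drawn at 0.003. Markers of skin, fast muscle, red cells, hatching gland and yolk lie above 1000 FPKM, and the genes rho of rods and mbpa of myelin lie at 0. The paired gene mbpb, not drawn, had a mean of 19.5 FPKM.

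Keratins led the genes of the skin. The epidermis list summed to 10731 ± 569 FPKM (SD, n = 3), with 41 of 43 genes expressed. The 24 keratin genes summed to 9252, 8761 and 9695 FPKM in replicates 1, 2 and 3. The outer layer keratin krt4 was 15.0 ± 0.57 times as high as krt5, which stood at 238, 250 and 267 FPKM. Further genes of the outer layer were cyt1l (1107 ± 70.06 FPKM), icn (978 ± 41.9) and cyt1 (789 ± 93.3). The basal layer factor tp63 had 9.95, 11.5 and 10.8 FPKM. Ionocytes, the salt-transporting cells of the skin, had 16 of 21 genes expressed. Their fate regulators foxi3a (5.69, 5.12 and 5.84 FPKM) and foxi3b (7.94, 6.52 and 8.37) were measurable, and the calcium channel trpv6 had 2.1, 2.43 and 2.27 FPKM. The highest of this list were pump genes used more widely, atp1a1a.1 at 33.1 ± 1.53 FPKM, atp1b1a at 31.1 ± 0.95 and atp6v1aa at 29.8 ± 1.25.

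Hatching gland genes were dominated by the hatching enzymes. The enzyme gene he1a stood at 2430, 2183 and 2670 FPKM and gave 66.6% of the summed level of its list, in which 15 of 17 genes were expressed. The list held 0.596% of summed FPKM, and 0.166% where genes are matched by table symbols alone. Its near copy he1b was lower, at 210, 190 and 203 FPKM. The symbol ctslb, a cathepsin of the hatching gland, names 2 gene entries at 363 ± 17.7 and 353 ± 48.0 FPKM (SD, n = 3), and reads may be split between them. Replicate 2 was the lowest library for he1a and he1b.

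Lipoprotein genes of the yolk and liver were close to the level of fast muscle. The list of liver, yolk and plasma proteins summed to 15819 ± 697 FPKM (SD, n = 3), and 43 of 61 genes were expressed. Apolipoproteins, which carry lipid in particles, gave 10842, 10818 and 11941 FPKM over 22 genes. The genes were apoa1a (3165, 3003 and 3351 FPKM), apoa1b (1957, 2071 and 2389), apoc1 (1744, 1611 and 1826) and apoa2 (1352, 1451 and 1552), with replicate 3 highest in each. The iron carrier transferrin gene tfa had 260, 258 and 281 FPKM. The liver gene fabp10a had 5, 1 and 2 reads and a mean of 0.373 FPKM. The 7 vitellogenin genes, made in the liver of adult females, summed to 0.587 ± 0.254 FPKM and none was expressed.

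Blood genes were almost entirely those of embryonic red cells. The 5 embryonic alpha-globin genes summed to 3005, 3338 and 3049 FPKM and the 5 embryonic beta-globin genes to 4009, 4123 and 3832 FPKM, while 5 adult globin genes held 13 reads over all libraries. The gene hbae3 had 2831 ± 139 FPKM (SD, n = 3) and hbbe3 2697 ± 54.3, a ratio of 1.05 ± 0.033. Next came si:ch211-5k11.12, the beta gene hbbe1.3 of RefSeq, at 885 ± 99.0 FPKM, hbbe1.1 at 210 ± 8.10, hbae1 at 167 ± 8.71, hbbe2 at 136 ± 9.84, the alpha gene si:ch211-5k11.2 with entries at 80.8 ± 19.7 and 45.8 ± 16.6, hbbe1.2 at 59.7 ± 9.77 and hbz at 6.26 ± 1.27. The adult gene hbaa1 had 6, 0 and 4 reads, zgc:92880 had 2, 0 and 1, and si:ch211-5k11.6 and both entries of ba1 had 0.

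Red cell enzymes stood well below globin. All 29 genes of the erythroid list were expressed, with the carbonic anhydrase cahz at 51.8 ± 5.24 FPKM (SD, n = 3), the haem synthesis gene urod at 32.0 ± 1.79 and the anion exchanger slc4a1a at 34.7, 52.5 and 45.4 FPKM. The first enzyme of haem synthesis in red cells, alas2, had 17.2, 21.7 and 20.5 FPKM, and the master regulator gata1a 2.77, 4.2 and 4.27. In alas2, slc4a1a and gata1a replicate 1 was lowest.

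Other blood lineages were sparse. The neutrophil and macrophage list had 16 of 28 genes expressed. It was carried by lysozyme, lyz, at 114, 115 and 129 FPKM, which gave 62.5% of the list. The neutrophil protease gene npsn had 17.3 ± 2.89 FPKM (SD, n = 3), the chemokine receptor cxcr4b, used in many tissues, 14 ± 0.13, and the neutrophil peroxidase mpx 1.90, 2.67 and 2.95. The macrophage gene mpeg1.1 had 23, 27 and 33 reads and 0.66, 0.75 and 0.87 FPKM. Among lymphoid genes 3 of 15 were expressed, and those, tcf7 (4.36 ± 0.18 FPKM), pax5 (2.96 ± 0.15) and ikzf1 (1.01 ± 0.29), are also used outside lymphocytes. The recombinase rag1 had 12, 7 and 8 reads and the T cell kinase lck 0, 0 and 1. Of 12 genes of blood stem cells 8 were expressed. The factor meis1b, at 83.1, 92.3 and 94.9 FPKM, is broadly used, myb had 8.22, 9.42 and 8.47 FPKM, and runx1 had 1, 0 and 2 reads. The runx1 entry is short: 3 reads over the 3 libraries equal 0.160 FPKM on it, against 0.0162 FPKM on rag1. Whether this entry covers the whole gene is not known here, so its few reads are a loose limit on runx1.

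The expressed vessel genes had a median of 6.095 FPKM, against 4.68 FPKM over all expressed genes. Of 37 endothelial genes 32 were expressed, and the sum was 280 ± 17.8 FPKM (SD, n = 3). The vessel factor fli1a had 12.2, 12.2 and 12.4 FPKM, the growth factor receptor kdrl 4.33, 4.36 and 4.01, and the junction cadherin cdh5 3.51, 3.28 and 3.56. These 3 genes differed little between libraries. The water channel aqp1a.1 (63.3 ± 2.33 FPKM), which red cells also use, the junction gene cldn5a (17.6 ± 9.50) and the ligand efnb2a (15.7 ± 1.31) were the highest.

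The lists of neural progenitors, neurons and brain regions were expressed almost whole. Of 43 genes of neural progenitors 42 were expressed, with a sum of 3484, 3466 and 3467 FPKM in replicates 1, 2 and 3. The inhibitor of differentiation id1, which many tissues use, led with 917 ± 50.5 FPKM (SD, n = 3), followed by the radial glia lipid carrier fabp7a at 579 ± 22.0. The progenitor factor sox3 had 194, 215 and 214 FPKM, sox2 43.0, 51.5 and 42.7, and the Notch target her4.1 20.5, 20.6 and 19.4. Among genes of the lists that the deposited table annotates with sequence-specific transcription factor activity, the 5 highest were sox3 (207 ± 11.95 FPKM), sox19a (127 ± 9.31), xbp1 (121 ± 5.39), ascl1b (99.9 ± 2.78) and insm1a (61.7 ± 3.51). Regulators without that term, such as meis1b and neurod4, are outside this order. So are genes with the term that stand in no list, among them hmga1a (1662 FPKM) and atf4a (327 FPKM), which were above sox3. The factor xbp1 regulates secretory cells.

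Tubulins led the neuronal genes. Of 48 neuronal genes 47 were expressed, with tuba1a at 254 ± 21.1 FPKM (SD, n = 3), tuba1c at 253 ± 12.7 and tubb5 at 195 ± 15.5. The RNA-binding protein gene elavl3, a general neuronal marker, stood at 14.1, 23.8 and 14.8 FPKM, so that replicate 2 was high. Its relative elavl4 had 6.82, 8.56 and 7.97 FPKM and the synaptic gene snap25a 19.4, 24.1 and 22.7, with replicate 1 lowest in both. Genes for making and carrying transmitters were low, with 11 of 21 expressed. The excitatory carrier slc17a6b had 2.31, 3.08 and 2.69 FPKM and the enzyme of inhibitory neurons gad1b 2.47, 2.85 and 2.37, a ratio of 1.05 ± 0.10, so that neither was above the other beyond the spread. The glycine transporter slc6a5 had 2, 24 and 9 reads. The enzyme ache (4.86 ± 0.56 FPKM), slc18a3a (3.52 ± 0.63) of cholinergic cells and slc32a1 (3.43 ± 0.19) of inhibitory cells were the highest.

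All 46 genes that pattern brain regions were expressed. The interneuron factor dbx1a reached 56.9 ± 5.11 FPKM (SD, n = 3), irx3a 50.7 ± 3.18 and dlx5a, also a gene of the pharyngeal arches and fins, 31.5 ± 2.69. The forebrain and midbrain factor otx2 had 26.6, 29.2 and 26.1 FPKM, the telencephalic foxg1a 16.7, 16.4 and 17.2, the midbrain-hindbrain gene eng2a 6.57, 7.39 and 6.05, and the hindbrain gene egr2b 1.28, 0.73 and 0.89. The libraries of otx2, foxg1a, eng2a and egr2b did not overlap.

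Glial and hormone genes were expressed less completely. In the myelin and glia list 17 of 21 genes were expressed, and 69.2% of the sum was apoeb, at 1129 ± 58.7 FPKM (SD, n = 3), a lipoprotein gene that the yolk also makes. The glutamine synthetases glulb (167 ± 4.96 FPKM) and glula (70.6 ± 3.94) followed. The gene plp1a, whose product later serves myelin, had 55.7, 67.9 and 50.4 FPKM. The a gene of myelin basic protein, mbpa, had 0 reads, which allows up to 0.0271 FPKM over the 3 libraries. The b gene of that name, mbpb, had a mean of 19.5 FPKM. Of 31 neuropeptide and pituitary genes 17 were expressed. Prolactin, prl, had 4.26, 4.68 and 4.12 FPKM, while oxt had 1, 0 and 4 reads and pomca 0, 1 and 5. Among the highest were the peptides tac1 (12 ± 0.067 FPKM) and adcyap1b (11.9 ± 0.26).

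The matrix list had the larger sum and the craniofacial and cartilage list the higher median gene, at 7.34 against 6.2 FPKM. Of 52 matrix and fibroblast genes 47 were expressed, among them sparc at 352 ± 15.8 FPKM (SD, n = 3) and postnb at 152 ± 3.13. The type I collagen genes col1a1a (174, 184 and 211 FPKM) and col1a2 (115.7, 114.5 and 122.8) were highest in replicate 3, and fibronectin, fn1a, had 6.54, 6.81 and 7.58. Of 33 notochord genes 29 were expressed. The sheath collagen col2a1a, shared with cartilage, had 35.8, 35.4 and 32.8 FPKM and col8a1a 4.79, 5.03 and 4.40, and the coatomer genes copb2 (50.9 ± 1.05) and copa (44.3 ± 2.46) were the highest. In the craniofacial list 29 of 37 were expressed, led by matn4 (37.8 ± 0.29 FPKM) and the mesenchyme factors twist1a (36.4 ± 3.07) and prrx1a (34.7 ± 1.31). The cartilage regulator sox9a had 9.16, 11.8 and 7.21 FPKM, but the cartilage proteoglycan acana had 7, 5 and 1 reads and the bone factor runx2b 0, 0 and 2. Fin bud genes were expressed in 26 of 28 cases, with the fin fold protein and1 at 39.1, 44.4 and 49.4 FPKM, msx3 at 36.7 ± 3.08, fgf10a at 4.78, 5.45 and 5.19, fgf24 at 1.97, 1.41 and 2.34 and tbx5a at 0.47, 0.81 and 0.55.

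Pigment cell genes and genes of the neural crest, which gives rise to these cells, had similar medians of 6.94 and 7.09 FPKM. A few pigment genes stood far above, and gch2 gave 32.5% of the summed level of its list. Of 28 pigment genes 24 were expressed. The pteridine enzyme gch2 had 314 ± 8.25 FPKM (SD, n = 3) and the purine enzyme paics, used in all dividing cells, 159 ± 7.86. The melanin genes tyrp1b (94.0, 102 and 90.1 FPKM), dct (79.1, 79.9 and 76.4) and pmela (44.1, 43.9 and 44.9) stood above mitfa (5.2, 6.76 and 6.02), the factor that controls them. Of 20 neural crest genes 18 were expressed, with msx1b at 39.3 ± 1.80 and tfap2a at 35.6 ± 1.44 FPKM. The crest factors sox10 (3.98, 4.54 and 4.18 FPKM) and foxd3 (1.85, 1.5 and 1.81) were lower, and crestin had a mean of 0.423 FPKM.

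Genes of the internal organs were low, with a few exceptions. Of 46 gut and pancreas genes 29 were expressed and 6 had no read. The lipid carrier fabp2 reached 181.9 ± 10.39 FPKM (SD, n = 3), sox9b 21.8 ± 1.02 and the endocrine factor neurod1, also neuronal, 20.7 ± 1.07. Insulin, ins, had 16.7, 17.3 and 21.2 FPKM, pdx1 3.45, 2.67 and 2.61, and foxa3 4.51, 4.77 and 4.59, while the digestive enzyme gene try had 13, 7 and 14 reads. In the kidney, 25 of 33 genes were expressed, with podxl at 17.3 ± 1.71, cd2ap at 12.3 ± 1.22 and the tubule cadherin cdh17 at 10.4, 12.3 and 10.3 FPKM. The glomerular genes wt1b (1.21, 0.68 and 1.76 FPKM) and nphs1 (4, 11 and 19 reads) were lower and were both highest in replicate 3. Ear genes were present, 22 of 35, with the otolith proteins stm at 11.3 ± 0.635, otomp at 7.89, 8.20 and 7.28 and oc90 at 4.77, 4.79 and 4.62 FPKM. The top of that list, sparc, pvalb9 (287 ± 11.3 FPKM) and pvalb8 (77.1 ± 7.31), is not limited to the ear. Of 32 genes of motile cilia 26 were expressed, with tuba8l3 at 44.1 ± 4.42, rfx2 at 9.55 ± 0.35, spag1a at 8.15 ± 0.41, foxj1a at 1.84, 2.23 and 1.44 and tekt1 at 1.1, 0.66 and 1.26 FPKM.

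The genes that define the tail bud and germ cells were low. The tail bud genes msgn1 (8, 7 and 2 reads), tbx16 (7, 7 and 5) and the segmentation clock gene her7 (1, 0 and 0) were near 0. The list had 27 of 44 genes expressed, and its leading genes lfng (122 ± 7.99 FPKM, SD, n = 3), her12 (113 ± 7.92) and hes6 (76.0 ± 2.06) are Notch pathway genes also used by the nervous system. Of 34 germ line genes 6 were expressed, a share of 17.6% against 52.2% over the table. They included nanos3 at 1.54, 3.29 and 3.08 FPKM, ddx4 at 1.26 ± 0.21 and gra at 1.55 ± 0.10, while dnd1 had 7, 9 and 2 reads.

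Hox genes, which set identity along the body axis, were expressed as a set. Of 50 gene entries 48 reached 0.5 FPKM, the 2 exceptions being second entries of hoxa9a (0 reads) and hoxc10a (0.31 ± 0.05 FPKM, SD, n = 3). The sum of the list was 505, 515 and 491 FPKM in replicates 1, 2 and 3. The highest gene was hoxb5b with 30.4, 28.5 and 28.5 FPKM, then hoxb3a (22.8, 25.8 and 25.1), hoxb8a (22.5, 23.1 and 24.3), hoxb1b (21.5, 21.2 and 21.0), hoxb6b (20.1 ± 1.57) and hoxb6a (20.1 ± 1.96). The ranges of hoxb3a and hoxb8a overlap, and those of hoxb6b and hoxb6a do too. All 6 belong to the hoxba and hoxbb clusters, which summed to 154 and 83.8 FPKM.

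**Figure D3:**
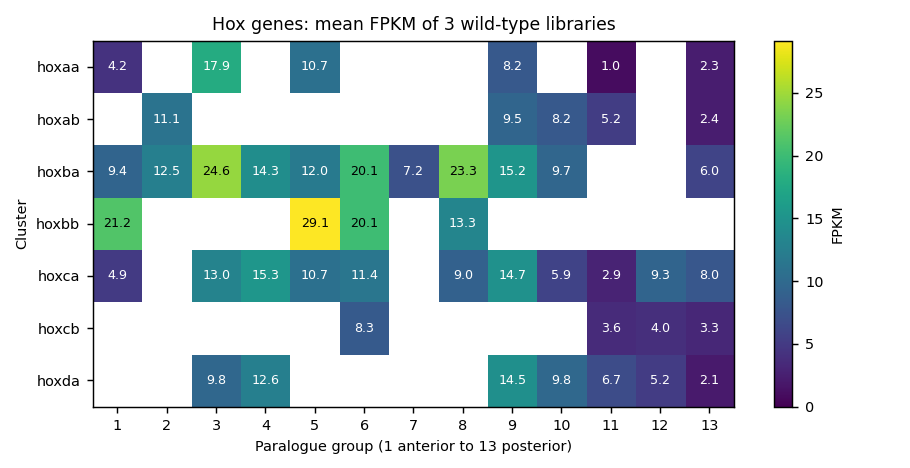
Mean FPKM of the 3 wild-type libraries for each Hox gene, by cluster and by paralogue group from anterior (1) to posterior (13), where 2 entries of hoxa9a and of hoxc10a are added. The brightest cell is hoxb5b at 29.1 FPKM, and all cells of group 13 lie at 7.96 FPKM or below.

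The medians of paralogue groups 1 to 4 were 7.15, 11.8, 15.5 and 14.3 FPKM, and those of groups 5 to 8 were 11.4, 15.8, 7.19 and 13.3. Groups 9 and 10 had 11.97 and 8.19 FPKM, and groups 11, 12 and 13 had 3.58, 5.19 and 2.82. The last 3 were the lowest, and the first was below group 9. These medians are over gene entries. The second entries of hoxa9a (0 reads) and hoxc10a (0.31 FPKM) thus count in groups 9 and 10 and lower their medians. The lowest were hoxa11a (0.83, 0.67 and 1.40 FPKM), hoxd13a (2.01, 2.24 and 2.01), hoxa13a (2.35, 2.44 and 2.24), hoxa13b (2.59, 2.31 and 2.2), hoxc11a (2.87 ± 0.30, SD, n = 3), hoxc13b (3.27 ± 0.41), hoxc11b (3.58 ± 0.18) and hoxc12b (3.97 ± 0.43). Posterior genes above these were hoxb13a (6.01 ± 0.40), hoxc13a (7.96 ± 0.98) and hoxc12a (9.34 ± 0.97). Groups 9 and 10 ran from hoxc10a (5.56 ± 1.09), hoxa9a (8.15 ± 0.51), hoxa10b (8.19), hoxa9b (9.47), hoxb10a (9.68) and hoxd10a (9.80) to hoxd9a (14.5), hoxc9a (14.7) and hoxb9a (15.2 ± 2.73). Other genes of groups 11 and 12 were hoxd12a at 5.19, hoxa11b at 5.25 and hoxd11a at 6.74 FPKM. The anterior and middle genes were spread more widely. From the bottom they were hoxa1a (4.23 FPKM), hoxc1a (4.91), hoxb7a (7.19), hoxc6b (8.29), hoxc8a (9.04), hoxb1a (9.38), hoxd3a (9.78), hoxa5a (10.7), hoxc5a (10.7), hoxa2b (11.1), hoxc6a (11.4), hoxb5a (12.04), hoxb2a (12.5), hoxd4a (12.6), hoxc3a (13.02), hoxb8b (13.3), hoxb4a (14.3), hoxc4a (15.3) and hoxa3a (17.9).

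All 60 cell cycle genes were expressed, with a sum of 5369, 5216.3 and 5304 FPKM in replicates 1, 2 and 3. The replication clamp pcna had 1261, 1157 and 1190 FPKM and rrm1, a subunit of the enzyme that makes deoxynucleotides, 259 ± 4.35 (SD, n = 3). The mitotic genes mki67 (54.8, 63.6 and 64.6 FPKM) and top2a (54.3, 59.8 and 61.3) were lower, and in both replicate 1 was the lowest. The gene ccng1, at 382, 358 and 358 FPKM, encodes a cyclin that does not drive the cycle. In glycolysis, 29 of 32 genes were expressed. The genes were gapdh at 656, 666 and 607 FPKM, the lactate dehydrogenase ldhba at 565 ± 29.4, aldoaa at 257 ± 8.80, ldha at 31.7, 30.1 and 30.1 and pkma at 17.4, 19.9 and 18.8.

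Reference genes for quantitative PCR were spread over more than 3 orders of magnitude in level. From the top they were eef1a1l1 (3742, 3586 and 3606 FPKM), actb2 (2178, 2135 and 2274), actb1 (1958, 1904 and 2058), ppiab (1265 ± 39.9, SD, n = 3), rpl13a (1092, 947 and 943), rps18 (958 ± 67.4), tubb4b (908 ± 20.95), gapdh (643 ± 31.7), ywhaz (252 ± 19.0) and gapdhs (142 ± 2.72). Below these came polr2d (127 ± 14.6 FPKM), tuba1b (113 ± 1.26), mob4 (109 ± 6.97), lsm12b (70.34 ± 2.66), ube2a (44.4 ± 0.85) and sdha (44.2 ± 2.18). Among the lowest were tbp (21.2, 21.8 and 22.8), hmbsa (17.96 ± 1.08), hprt1 (8.44, 9.18 and 8.59) and b2m (2.41, 1.77 and 2.53). The ratio of actb2 to actb1 was 1.11 ± 0.008.

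The 3 libraries were then compared with each other. A chi-square test asked, for each expressed gene, whether its counts differed between the libraries by more than counting error allows, after TMM scaling and with Benjamini-Hochberg adjustment at 0.05. It called 4471 of 16507 genes, or 27.1%, and the call depends on depth: 13.4% of genes between 0.5 and 1 FPKM were called, and 100% of the 125 genes above 1000 FPKM. The coefficient of variation beyond counting error (excess CV) had a median of 6.44% over the expressed genes. It also changed with level, with medians of 12.5% between 0.5 and 1 FPKM, 7.43% between 1 and 10 and 4.98% between 10 and 100. Between 100 and 1000 FPKM the median was 6.71%, and above 1000 FPKM 9.23%. An excess CV of 0% means only that no variation beyond counting error was seen at the depth of that gene. Replicate 2 was the library farthest from the mean in 48.4% of the called genes. Without replicate 2 the test, then on 2 libraries, called 1609 genes. Without replicate 1 or 3, also on 2 libraries, it called 3007 and 3103. Short and long genes moved apart between libraries: the 1655 shortest expressed genes stood 0.13 higher in replicate 1 than in the other libraries on the log2 scale, and 0.10 lower in replicate 2. The 1653 longest stood 0.12 lower in replicate 1 and 0.12 higher in replicate 2.

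Of the reference genes, 11 of 21 (52.4%) were called, against 27.1% over all genes. Their median level was 127 FPKM, and 87.7% of all genes between 100 and 1000 FPKM were called. The reference genes ran from 2.24 to 3645 FPKM, and 21.0% of all genes between 1 and 10 FPKM were called. Neither share therefore matches the whole list. The excess CV of the reference genes was 0% for tbp and hprt1, 1.07% for tuba1b, 1.44% for sdha and 1.48% for gapdhs. It was 14.4% for polr2d, 11.5% for rpl13a and 9.30% for ywhaz. For eef1a1l1, actb2, actb1 and gapdh it lay between 5.15% and 5.83%.

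Fast muscle and lens were low together in replicate 3. The median fast muscle gene stood 0.23 lower there than in the other libraries on the log2 scale, 36 of 38 genes were lower, and 33 had their lowest FPKM there. The median lens gene stood 0.24 lower in replicate 3 and 0.26 higher in replicate 1, and 27 of 33 were lower in replicate 3. Called were 35 of 38 fast muscle and 24 of 33 lens genes, with median excess CVs of 11.1% and 12.9%. Over all genes 27.1% were called. The expressed fast muscle genes had a median of 130 FPKM, and 87.7% of all genes between 100 and 1000 FPKM were called. The expressed lens genes had a median of 31.0 FPKM, and 35.6% of all genes between 10 and 100 FPKM were called. Every list of this paragraph spans several such ranges, up to 3081 FPKM in fast muscle and 392 FPKM in lens. The share at the median therefore does not match a whole list. Replicate 3 stood the other way in the epidermis list, higher by 0.13 with 36 of 41 genes higher, in the liver and yolk list, by 0.12 with 34 of 43, and in the myeloid list, by 0.25 with 14 of 16. These differences kept their sign with total gene counts, with DESeq2 size factors and with the trend in gene length removed. Called were 33 of 41 epidermis, 31 of 43 liver and yolk and 4 of 16 myeloid genes. The expressed genes of these lists had medians of 38.5, 65.9 and 1.835 FPKM. Over all genes, 35.6% were called between 10 and 100 FPKM and 21.0% between 1 and 10. The shortest and longest genes in replicate 3 stood within 0.01 of the other libraries on the log2 scale. In replicate 1 the shortest genes stood 0.13 higher and the longest 0.12 lower. The lens genes had a median exonic length of 1288 bases, against 2286 over the expressed genes. The part of gene length in the lens difference of replicate 1 was not tested further.

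Ribosomal protein genes separated replicate 1. The median gene of the 88 stood 0.25 higher in replicate 1 and 0.17 lower in replicate 2, and 87 genes had their highest FPKM in replicate 1. Of these genes 86 were called, with a median excess CV of 10.7%, against 9.23% over all genes above 1000 FPKM, of which 100% were called. The compared sets share many genes, since the median of the 88 was 1625 FPKM. The median exonic length of the ribosomal protein genes was 1103 bases, against 2286 over the expressed genes. With the length trend removed the difference in replicate 1 was 0.17. The further part of gene length in this difference was not tested. Hox genes had 7 of 48 called and a median excess CV of 2.93%. Endothelial genes had 6 of 32 called and neural crest genes 3 of 18, with median excess CVs of 0.064% and 0%. Over all genes, 21.0% were called between 1 and 10 FPKM and 35.6% between 10 and 100 FPKM, so these counts are to be read against the level of each list.

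**Figure D4:**
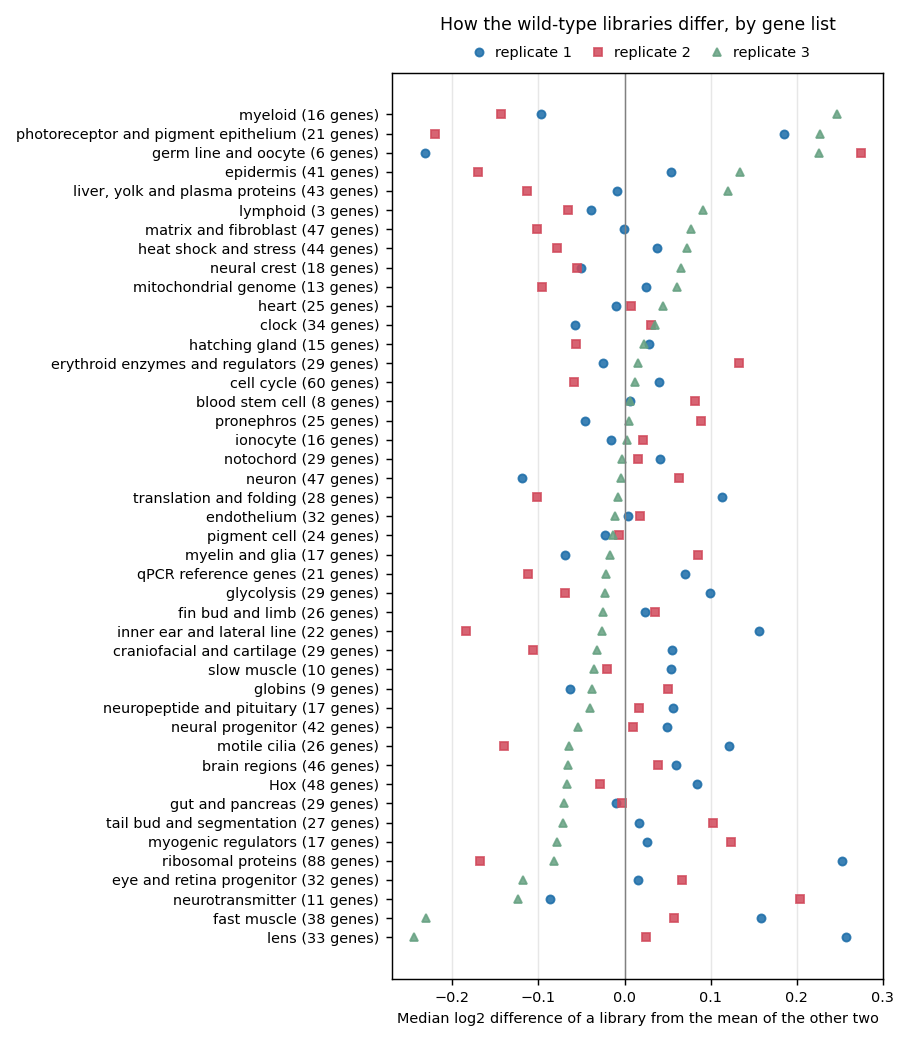
Median log2 difference of each wild-type library from the mean of the other libraries, for the expressed genes of each list, sorted by replicate 3. Fast muscle and lens stand lowest in replicate 3, at -0.23 and -0.24, and ribosomal proteins and lens highest in replicate 1, at 0.25 and 0.26.

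Among genes of at least 10 FPKM with a name other than a clone name, the largest excess CV belonged to cldn5a, a tight junction gene of brain ventricles and vessels, with 16.3, 27.7 and 8.87 FPKM (excess CV 51.1%, adjusted p = 1.89e-43). The libraries ran from replicate 3 to replicate 1 to replicate 2. In most of the others replicate 2 alone was high: the carbonic anhydrase ca2 had 158, 319 and 152 reads, the mitotic checkpoint gene bub1bb 9.48, 18.7 and 9.05 FPKM, the Notch regulator nrarpb 22.7, 40.4 and 19.0, the factor vezf1a 9.61, 16.5 and 8.01 and zc3h7b 8.91, 15.7 and 9.31. Of these, nrarpb kept a call without replicate 2, whereas ca2, bub1bb, vezf1a and zc3h7b lost it, with adjusted p of 0.452, 0.666, 0.172 and 0.947. Under the other alternatives tried the highest of these was 6.3e-07. The aldehyde dehydrogenase aldh2.2 had 10.16, 14.7 and 6.56 FPKM. The remaining 3 are short RNAs with few reads: dre-mir-124-2 (15, 9 and 26 reads), dre-mir-22a (8, 24 and 23) and 5_8S_rRNA (32, 29 and 14). The first and second did not pass the test (adjusted p = 0.0596 and 0.0923). The call of 5_8S_rRNA (adjusted p = 0.0378) was lost with no filter (0.0518), with the length trend removed (0.0671), without replicate 1 (0.0861) and without replicate 3 (0.645), and its adjusted p ranged from 0.0277 to 0.645 over the alternatives.

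Zebrafish carry many gene pairs from the genome duplication in the ancestor of teleost fish, and such pairs often end in a and b. By name alone, the table held 2584 pairs of symbols that end in a and b. These include genes that are not copies of each other, such as sdha and sdhb, and microRNA genes with 0 reads. The shares below therefore describe pairs of names and not duplicated genes. Both genes were expressed in 1572 pairs (60.8%), a single gene in 659 and neither in 353. Of all genes in the table, taken singly, 52.2% were expressed. Where both were expressed, the higher gene stood above the lower by a median of 2.52 times. The gap was at least 4-fold in 498 pairs, and the libraries of the 2 genes did not overlap in 86.1% of the 1572. The same measures were not computed for pairs drawn from all expressed genes. They are therefore not shown to be particular to pairs that share a name.

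**Figure D5:**
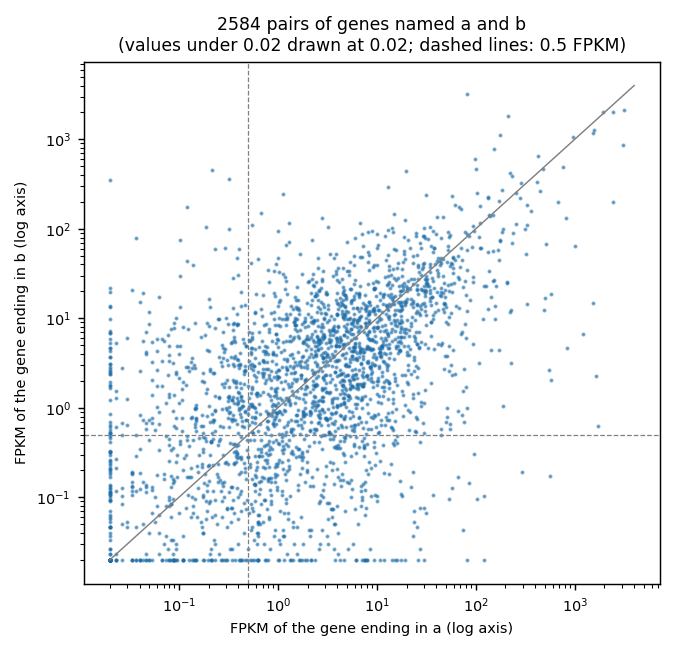
Mean FPKM of the gene ending in b against that of the gene ending in a, on log axes, for 2584 pairs matched by name, with the diagonal marking equal levels and dashed lines at 0.5 FPKM. Pairs spread widely on both sides of the diagonal, with Pearson's r of 0.576 across pairs on log2(FPKM + 1), a description over genes that share their libraries.

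Among pairs with a gene of at least 100 FPKM, a wide gap was that of hmga1, a chromatin protein, where hmga1a had 1662 FPKM and hmga1b 2.28. The lipid carrier fabp7 followed with 579 FPKM for the a gene and 2.04 for the b gene, and the iron store fth1 had 1214 against 6.72. In other pairs the b gene was the higher: postn stood at 0.683 and 152 FPKM and the crystallin cryba1 at 1.13 and 248 FPKM. For some housekeeping roles a single gene of the pair was expressed. The b gene of cycs, cytochrome c, had 351 FPKM and the a gene 0, and the b gene of slc25a3, the mitochondrial phosphate carrier, had 360 FPKM and the a gene 0.32. The a gene of ldhb had 565 FPKM and the b gene 0.173. Muscle and lipoprotein pairs were closer: mylpfa was 3.59 ± 0.17 times mylpfb and apoa1a 1.49 ± 0.11 times apoa1b (SD, n = 3). A name does not show that a pair arose in that duplication, and close copies can share reads.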

How the data were processed

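RNA was sequenced from 3 wild-type libraries of whole zebrafish embryos at 33 hpf. The authors deposited a table of raw read counts per gene, as whole numbers, and of FPKM values. Recomputing FPKM from each count, the exon length and the summed counts gave the deposited value to within 0.005. Per the submitters' processing notes, which give neither roles nor order, HISAT2 2.0.1 and HTSeq 0.6.1 were used beside bcl2fastq 2.17.1.14, DESeq2 and cutadapt, with the GRCz11 genome. Strand use, the annotation and the handling of reads that match several genes are not given in the sources used here; overlapping genes and near-identical copies are uncertain. A few genes are not reported here. Mutant libraries, the splicing tables and the authors' table of changed genes were not used.

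A gene counted as expressed where its FPKM averaged 0.5 or more in these libraries. TMM scaling came from edgeR 4.0.16 and alternative size factors from DESeq2 1.42.0 (R 4.3.3). The chi-square test was computed in Python 3.11.15 with SciPy 1.17.1 and adjusted over 16507 genes. Tested on simulated data with these 16507 genes, where 1 library was raised, it called 12 of 50 genes raised 1.2-fold, 31 of 50 raised 1.5-fold, 46 of 50 raised 2-fold, 49 of 50 raised 4-fold and 8 of 16307 unchanged genes. The simulated counts varied by counting error only. They held no other variation between libraries, so these calls give no error rate for the real libraries. In the real libraries the common biological coefficient of variation was 9.23% by edgeR. All 3 pairs of libraries differed beyond sampling noise, with a mean chi-square per gene between 5.82 and 8.44, so none was a copy of another. Each counted as 1 sample of the group, as labelled. Limits from a count of 0 use 3 reads and cover counting error only.

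The members and lists were chosen with earlier results of these data known. The 42 lists of symbols held 1318 symbols, of which 1235 matched the table, 24 a table of gene names and 14 a RefSeq synonym, 6 repeated a gene already matched and 39 were not matched. Over all 44 lists, 85 of 1430 genes stand in more than 1 list. Genes named are the 20 highest, each list's defining genes and its 3 highest, the 10 most variable of at least 10 FPKM without clone names, the globin, opsin, Hox and reference genes, and the 5 highest genes of the lists annotated as transcription factors. Gene pairs, rhol, cyt1, hspa8, myhz1.1, mylpfb and pvalb1 were added after values were seen. Alternatives were other scalings, other filters, each library left out and, for lists, other units, denominators and matching.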

Additional observations from a re-analysis of the deposited data

How the results depend on the processing

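No paired analysis was possible because 1 group was described and no groups were compared. The 4471 genes that varied between libraries became 4744 with total gene counts, 4517 with DESeq2 size factors, 3114 with a minimum of 5 FPKM, 4290 with no filter and 3583 with the length trend removed, and 1609 to 3103 when 1 library was left out. The low end is without replicate 2, and 1580 of those 1609 genes were among the 4471. Every fit with 1 library left out has fewer counts, and without replicate 1 or 3 the test called 3007 and 3103 genes. Why the number was lowest without replicate 2 was not tested. The 100 genes with most reads held 29.3% of reads without the mitochondrial genome, and the 100 highest genes held 41.6% of summed FPKM. The number of expressed genes ran from 14279 at 1 FPKM to 20724 at 0.1 FPKM. Share of summed FPKM against share of reads moved 40 of 44 list levels by more than the spread between libraries. Lists are therefore ranked per length only. Leaving out a library cannot move a level by this rule, because the mean of the remaining libraries always lies within the SD of all 3. It therefore says nothing about how steady the 44 levels are. Matching by table symbols alone moved 5, and the hatching gland list by over 1.5 times, from 0.596% to 0.166% of summed FPKM. Of the library differences of the lists, examined under 3 scalings chosen after seeing the data, none of 0.1 or more on the log2 scale changed sign. With total gene counts the median of all expressed genes shifted by 0.07 in replicates 1 and 2. A search for promoter motifs, with its 2 alternatives, was not run because no promoter sequences were given. With 3 libraries and genes of a few reads, markers near 0 show only a limit.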

Other observations

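The annotation terms in the deposited table divide the same embryo by molecular class. Of 146 genes annotated as structural parts of the ribosome 145 were expressed, as were 47 of 47 genes of the spliceosome and 44 of 51 of the proteasome, with medians of 596, 31.9 and 115 FPKM among the expressed. Of 626 genes for sequence-specific transcription factors 497 were expressed (79.4%), with a median of 5.01 FPKM. The classes of G-protein coupled receptors, olfactory receptors and ion channels were at the other end. Of 777 genes for G-protein coupled receptors 124 were expressed (16.0%), led by the Wnt receptors fzd7a, fzd10 and fzd2 and by ackr3b and s1pr1. None of 114 olfactory receptor genes reached 0.5 FPKM. Of 203 genes for ion channels 61 were expressed (30.0%). These compare with 52.2% over the table, and annotation is not even across classes.

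Genes of the daily clock and of stress were measured too. Of 43 clock genes 34 were expressed, with the kinase csnk1da at 54.1 ± 2.38 FPKM (SD, n = 3), cry1ba at 26.6 ± 2.86 and nfil3 at 24.6 ± 1.62. The clock factor arntl1a had 10.3 ± 0.14 FPKM, cry1aa 3.87, 4.60 and 5.07 and per1b 1.07, 0.83 and 0.87. Of 49 stress genes 44 were expressed. The detoxifying enzymes gstp1 (363 ± 15.3 FPKM) and prdx1 (136 ± 9.46) and the chaperone hsp90b1 (120 ± 5.03) led, hmox1a had 18.4, 17.4 and 19.2 FPKM, and the inducible chaperone hsp70l had 14, 7 and 15 reads. Short RNA genes had few reads: 49 of 308 microRNA genes and 3 of 694 U6 genes reached 0.5 FPKM, and 714 entries for 5S ribosomal RNA shared 180 reads over the 3 libraries. How far these libraries kept short RNAs, and how reads that match several copies were counted, is not known here. These counts therefore do not show that such genes are silent in the embryo.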
